A study of Mus musculus with 2 samples.

Results

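The genes of cholesterol synthesis, uptake and handling were followed in organoids of mouse fallopian tube epithelium with and without Trp53, which encodes the tumour suppressor p53. The 29 members were taken by symbol from a list of pathway genes, and all 29 were found among the 25668 gene symbols of the deposited tables. One library came from wild-type organoids, labelled normal fallopian tube epithelial cells, and 1 library from organoids labelled Trp53 KO. The organoids were started from a mouse carrying a Cas9-EGFP transgene at the Rosa26 locus, and both libraries carry the treatment label conditioned medium. With 1 library per genotype there is no replicate check, no test between genotypes was possible, and each difference compares these 2 libraries. The labels do not say whether the knockout organoids were 1 clone or a pool.

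Levels are TPM, a length-scaled transcript abundance that sums to the same total in each library. A difference is taken on log2(TPM + 1), knockout minus control, and a gene counts as measured where its TPM averages 1 or more over both libraries. Ratios are of TPM itself, knockout over control, and are followed by an exact Clopper-Pearson 95% interval from estimated reads, which covers counting error only. The libraries held an estimated 100099419 and 27688212 reads, control first, so the control values are the more precise. Trp53 itself was 83.2 TPM in control organoids and 2.42 TPM in Trp53 knockout organoids. Epithelial keratins and adhesion genes were high in both libraries, with 9275 and 14124 TPM summed over 6 markers. The 5 secretory cell markers summed to 15991 TPM in control organoids and 2628 TPM in Trp53 knockout organoids, nearly all of it Lcn2 (15660 and 2342 TPM). Of the other secretory markers, Pax8 (44.8 and 46.0 TPM) and Msln (243 and 232 TPM) differed little, while Wt1 (35.3 and 7.85 TPM) and Ovgp1 (7.44 and 0.192 TPM) were lower. The 7 multiciliated cell markers summed to 208 and 60.4 TPM, and the 5 measured ones were all lower by 2-fold or more. The 5 markers of basal and squamous cells, which do not mark normal tubal epithelium, summed to 4.70 and 3005 TPM.

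Cells make cholesterol from acetyl-CoA through mevalonate and isoprenoid diphosphates, which are joined to squalene and closed into the first sterol ring. The ring is then demethylated, reduced and isomerised on the endoplasmic reticulum. When membrane cholesterol is low, Scap carries the SREBP transcription factors, encoded by Srebf1 and Srebf2, to the Golgi for cleavage, and the Insig proteins hold that complex back when sterols are plentiful. Surplus cholesterol is stored as esters made by Soat1 or exported by Abca1.

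Of the 19 synthesis enzymes, 17 had a difference above 0 and 3 were higher by 2-fold or more, whereas the sterol-storing enzyme gene Soat1 was far lower. Of the 29 members, 28 were measured. Pmvk, Fdps and Cyp51 were higher by 2-fold or more, 3 of 28 against 8.35% of all 11228 measured genes. Soat1 was lower by 2-fold or more, 1 of 28 against 15.3% of all. Differences above 0 were found for 20 of the 28 members and for 39.9% of all genes. The median difference was 0.32 over the members and −0.17 over all genes. Quantile normalization brought the median over all genes to 0.03, with 11.5% of them higher and 11.8% lower by 2-fold, and the members' median was 0.40.

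**Figure D1:**
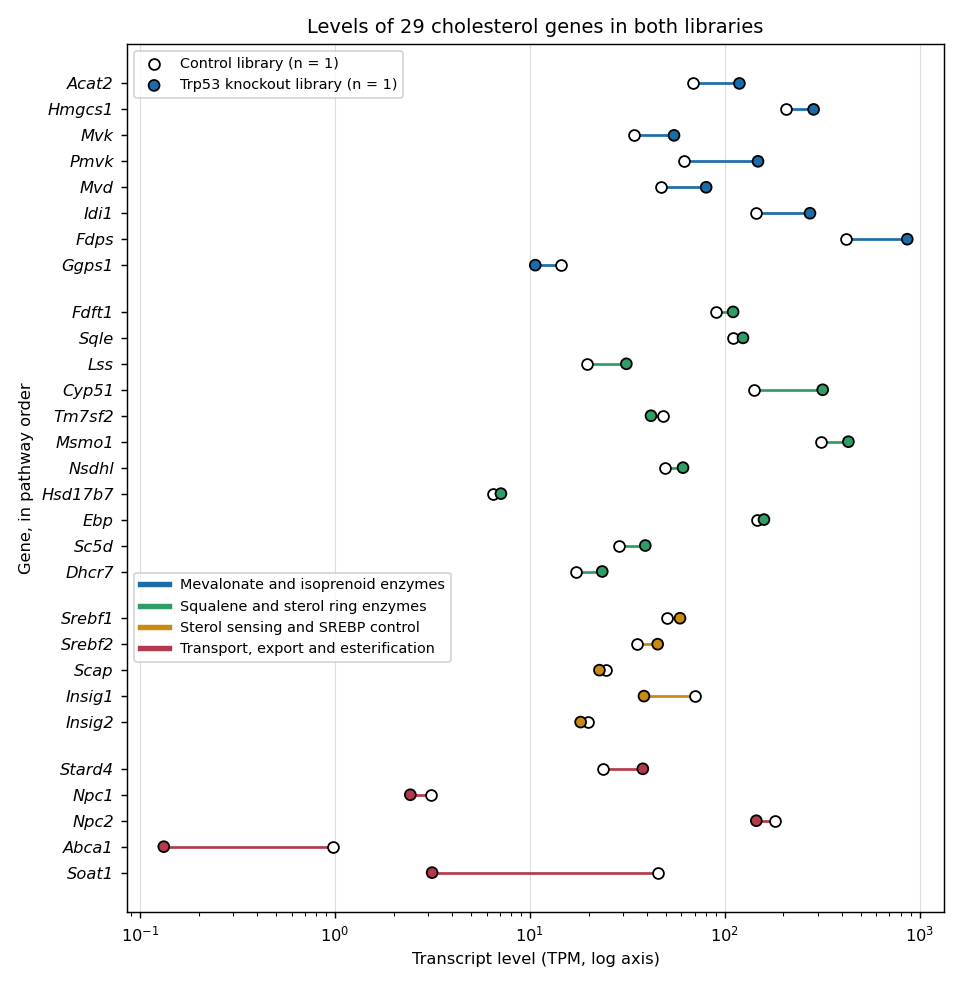
Levels of the 29 genes in TPM on a log axis, in pathway order. Open points are the control library and filled points the knockout library, and the line joins the 2 values of a gene. Fdps is the most abundant member in both libraries, at 420.2 and 865 TPM, and Soat1 and Abca1 have the longest lines to the left.

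The 2 blocks of enzymes differed in size of change. Summed over the 8 mevalonate and isoprenoid enzymes, TPM came to 997 in control and 1837 in knockout organoids, 1.84 times as much. Fdps alone gave 420.2 and 865 TPM of these sums. Summed over the 11 squalene and sterol ring enzymes, TPM came to 968 and 1347, 1.39 times as much. Of these sums Msmo1 gave 310.5 and 431 TPM, and Cyp51 gave 142 and 318 TPM. The median difference was 0.77 in the first block and 0.30 in the second. The sum over the 5 genes of sterol sensing went from 201 to 184 TPM, and over the 5 genes of transport, export and esterification from 256 to 189 TPM. Npc2 alone gave 182 and 145 TPM of the transport sums. The order of the levels was much alike in the libraries, with a Spearman's rho of 0.967 across the 19 enzymes, which share both libraries and are not independent replicates.

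Promoter bases are shown for 4 members of different steps, to let their motifs be compared. They are Hmgcs1, at the entry to the mevalonate pathway, Cyp51, with the highest ratio among the sterol ring enzymes, Insig1, the sensor gene with the lowest ratio, and Soat1. Each sequence is the 250 bases before the annotated start, read 5′ to 3′ on the gene's strand from RefSeq on GRCm38.p6, an earlier build than the deposited values. They lie at chr13:119690101-119690350 on the plus strand, chr5:4104698-4104947 on the minus strand, chr5:28071162-28071411 on the plus strand and chr1:156474329-156474578 on the minus strand, in the same order. Capitals mark every match on either strand to CACNCCAC (the core of a sterol regulatory element, the SREBP binding site), CACGTG (a palindromic E-box), CCAAT (the box bound by NF-Y) and GGGCGG (the GC box bound by Sp1).
Hmgcs1: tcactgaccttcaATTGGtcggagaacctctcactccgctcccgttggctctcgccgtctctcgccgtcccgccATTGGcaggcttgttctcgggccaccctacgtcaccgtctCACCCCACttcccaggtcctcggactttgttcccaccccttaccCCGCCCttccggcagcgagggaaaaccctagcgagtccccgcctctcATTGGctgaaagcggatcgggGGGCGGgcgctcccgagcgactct
Cyp51: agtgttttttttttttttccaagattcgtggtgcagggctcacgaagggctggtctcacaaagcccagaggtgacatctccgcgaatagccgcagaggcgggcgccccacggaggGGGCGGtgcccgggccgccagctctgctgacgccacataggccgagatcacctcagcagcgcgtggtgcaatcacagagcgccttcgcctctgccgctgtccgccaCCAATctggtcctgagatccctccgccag
Insig1: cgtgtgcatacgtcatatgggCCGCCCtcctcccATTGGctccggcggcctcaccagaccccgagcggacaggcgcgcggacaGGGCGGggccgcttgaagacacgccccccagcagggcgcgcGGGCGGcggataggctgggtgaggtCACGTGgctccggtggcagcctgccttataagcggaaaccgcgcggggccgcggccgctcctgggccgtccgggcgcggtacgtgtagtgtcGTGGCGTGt
Soat1: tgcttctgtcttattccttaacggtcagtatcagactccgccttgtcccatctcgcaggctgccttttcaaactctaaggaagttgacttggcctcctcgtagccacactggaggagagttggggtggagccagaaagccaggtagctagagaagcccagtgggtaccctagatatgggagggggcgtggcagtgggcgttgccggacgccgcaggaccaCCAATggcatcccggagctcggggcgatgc

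The Hmgcs1 window holds a sterol regulatory element core that begins 136 bases before the start, with 3 CCAAT matches and 2 GC boxes. The Insig1 window holds 1 such core on the minus strand, an E-box, a CCAAT match and 3 GC boxes. In the Cyp51 window there is 1 CCAAT match and 1 GC box, and in the Soat1 window 1 CCAAT match. Promoters of 24 members were in the RefSeq table, and those of Fdps, Fdft1, Sqle, Stard4 and Npc1 were not. A gene was counted where any of its windows held a match, so genes with several starts had more chances. CCAAT was found for 21 of the 24 members (87.5%), for 37.5% of all 27025 genes in the table and for 41.0% of the 9017 of them that were measured. The GC box was found for 21 members (87.5%), 35.4% of all genes and 65.2% of the measured ones. The sterol regulatory element core was found for 3 members (12.5%), Acat2, Hmgcs1 and Insig1, and for 6.05% of all genes and 6.54% of the measured ones. The E-box was found for 6 of the 24 members, 6.86% of all genes and 10.1% of the measured ones. The motif forms were chosen with these matches in view. A match describes the letters and does not show binding. Only these exact letters were searched, so a window without a match, such as that of Cyp51 for the sterol element, can still hold a site of another form.

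Both members that lead to HMG-CoA, the precursor of mevalonate, were higher in the knockout library, below the 2-fold mark. Acat2, the cytosolic thiolase that joins 2 acetyl-CoA units, was 68.7 TPM in control organoids and 119 TPM in Trp53 knockout organoids, a ratio of 1.73 (1.67 to 1.79). Hmgcs1, which adds the next acetyl unit to give HMG-CoA, was 206 and 286 TPM, a ratio of 1.39 (1.36 to 1.41). The mitochondrial thiolase gene Acat1, outside the cholesterol route, was 48.0 and 32.1 TPM. Acat3, a neighbouring paralog that can share reads with Acat2, was 1.65 and 0.256 TPM, far below Acat2 in both libraries.

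Mevalonate is next phosphorylated and decarboxylated, and all 3 genes of these steps were higher. Mvk, mevalonate kinase, was 34.2 TPM in control organoids and 54.9 TPM in Trp53 knockout organoids, a ratio of 1.60 (1.51 to 1.70). Pmvk, phosphomevalonate kinase, was 61.4 and 148 TPM, and its ratio of 2.41 (2.30 to 2.53) was the highest among the members. Mvd, the decarboxylase that yields isopentenyl diphosphate, was 47.4 and 80.3 TPM, a ratio of 1.70 (1.61 to 1.78). Only 5.71% of all measured genes had a larger difference than Pmvk. The interval of Pmvk lay above those of Mvk and Mvd, which overlap each other.

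Isopentenyl diphosphate is next isomerised and joined into farnesyl diphosphate, a precursor of both sterols and the prenyl groups of proteins. Idi1, the isomerase of the 5-carbon units, was 145 TPM in control organoids and 274 TPM in Trp53 knockout organoids, a ratio of 1.89 (1.85 to 1.93) and just under the 2-fold threshold. Fdps, which makes farnesyl diphosphate, was 420.2 and 865 TPM, a ratio of 2.06 (2.02 to 2.09) and just over it. Fdps shares 26.7% of its exon bases with the annotated gene Gm43738 on the same strand, at 0.325 and 0.794 TPM. Ggps1, which extends farnesyl to geranylgeranyl diphosphate for protein prenylation, was the 1 enzyme of the block that was lower. It was 14.4 and 10.7 TPM, a ratio of 0.738 (0.683 to 0.797), and 36.1% of all measured genes had a lower difference. In TPM the Fdps level was 29.1 times that of Ggps1 in the control and 81.1 times in the knockout library. Fdps was 4.67 and 7.83 times the level of Fdft1, the squalene synthase that takes farnesyl diphosphate into sterols.

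**Figure D2:**
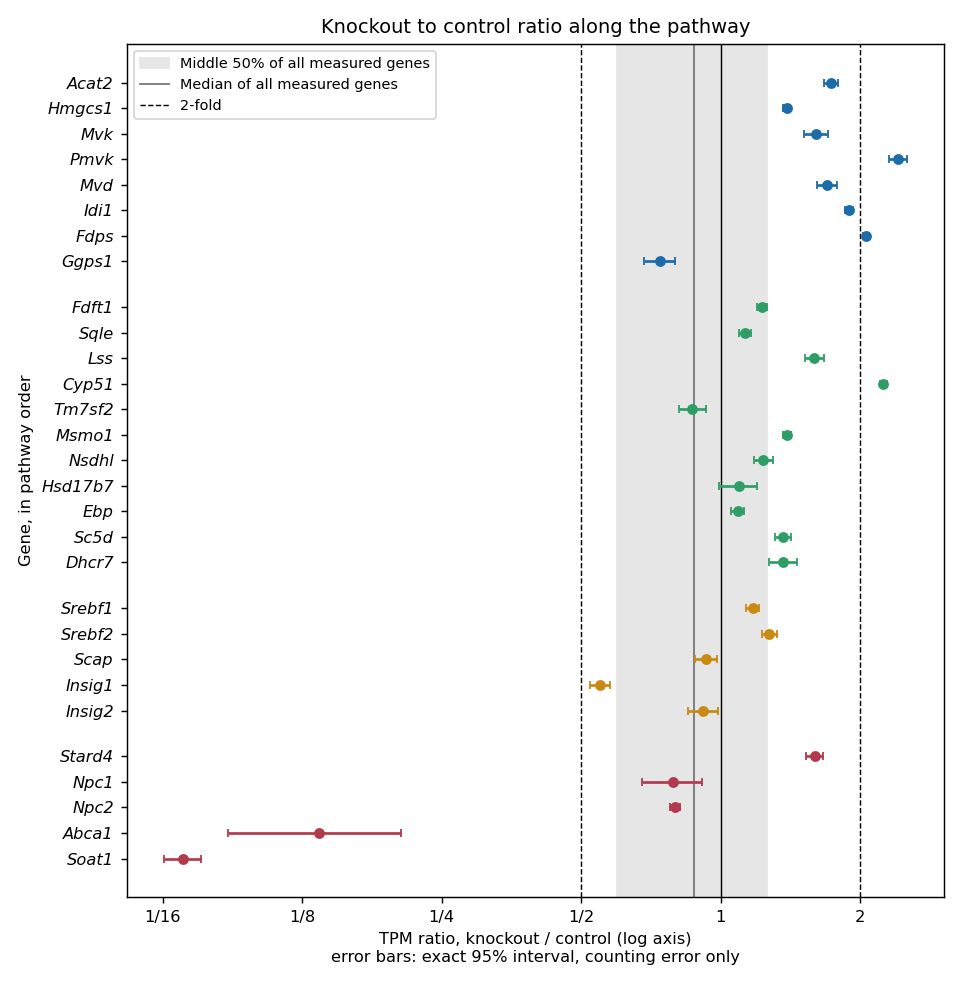
TPM ratio of the knockout to the control library for each gene on a log axis, with exact 95% intervals for counting error. The grey band holds the middle 50% of all measured genes (0.596 to 1.26), the grey line their median (0.876), the dashed lines mark 2-fold. Pmvk, Fdps and Cyp51 lie beyond 2-fold on the right, and Soat1 and Abca1 far to the left.

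Squalene formation and oxidation differed little between the libraries. Fdft1 was 90.0 TPM in control organoids and 110 TPM in Trp53 knockout organoids, a ratio of 1.23 (1.19 to 1.26). Sqle, squalene epoxidase, which commits squalene to the sterol ring, was 110 and 124 TPM, a ratio of 1.13 (1.10 to 1.16). Lss, lanosterol synthase, which closes the ring, was 19.7 and 31.3 TPM, a ratio of 1.59 (1.52 to 1.67). Of these 3 consecutive steps only ring closure lay above 1.5-fold. The Fdft1 value carries a limit, since 18.3% of its annotated exon bases are shared with the cathepsin gene Ctsb on the opposite strand, at 560 and 145 TPM, and how strand was treated in the counting is not known.

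Among the enzymes that trim the sterol ring, the C14 demethylase gene stood apart. Cyp51, lanosterol 14-alpha demethylase, was 142 TPM in control organoids and 318 TPM in Trp53 knockout organoids, a ratio of 2.24 (2.20 to 2.28). It ranked seventh in level among the 29 members in the control and the third in the knockout library. Tm7sf2, a C14 sterol reductase of the next step, was 48.2 and 41.8 TPM, a ratio of 0.868 (0.812 to 0.928), which lay at the median of all genes. Lbr, the lamin B receptor, which has the same reductase activity and was named after its values were seen, was 22.4 and 41.9 TPM, a ratio of 1.87 (1.78 to 1.97). Tm7sf2 was thus 2.15 times the level of Lbr in the control library and 0.999 times in the knockout library. Tm7sf2 shares 12.1% of its exon bases with Vps51 on the same strand, at 25.2 and 17.0 TPM.

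The 3 members that act in C4 demethylation, which are not all genes of this step, had ratios between 1.09 and 1.39. Msmo1, the methylsterol oxidase, was 310.5 TPM in control organoids and 431 TPM in Trp53 knockout organoids, a ratio of 1.39 (1.36 to 1.41), and was the second most abundant member in both. Nsdhl, the decarboxylating dehydrogenase, was 49.4 and 61.1 TPM, a ratio of 1.24 (1.18 to 1.30). Hsd17b7, the ketoreductase that completes the reaction, was 6.50 and 7.10 TPM, a ratio of 1.09 (0.992 to 1.20). It was the 1 member whose counting interval held 1, so no difference was detectable for it at this depth. It was also the least abundant of the 19 enzymes, 47.8 times below Msmo1 in the control and 60.7 times in the knockout library.

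The last isomerisation, desaturation and reduction steps were slightly higher. Ebp, the sterol isomerase, was 146 TPM in control organoids and 159 TPM in Trp53 knockout organoids, a ratio of 1.09 (1.05 to 1.12). Sc5d, the C5 desaturase, was 28.7 and 39.1 TPM, a ratio of 1.36 (1.31 to 1.42). Dhcr7, the reductase that turns 7-dehydrocholesterol into cholesterol, was 17.3 and 23.5 TPM, a ratio of 1.36 (1.27 to 1.46). Along the whole route, 17 of the 19 enzymes had a difference above 0, against 39.9% of all genes. The same number was above 0 after quantile normalization, against 52.1% of all genes, and after rescaling by the median ratio, against 49.6%.

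**Figure D3:**
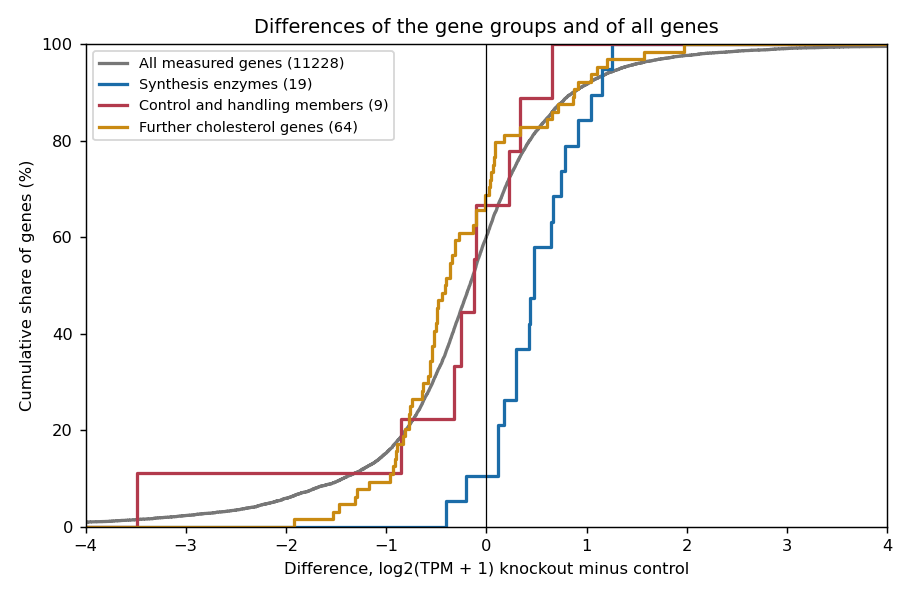
Cumulative share of genes (%) against the difference in log2(TPM + 1), knockout minus control. The curve of the 19 enzymes lies to the right of that of all 11228 measured genes (medians 0.47 and −0.17), and the other curves are the 9 measured members of control and handling and 64 measured genes of 6 further lists.

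The SREBP genes themselves differed less than most of the enzymes. Srebf1, which favours genes of fatty acid synthesis, was 50.3 TPM in control organoids and 58.9 TPM in Trp53 knockout organoids, a ratio of 1.17 (1.13 to 1.21). Srebf2, the main activator of cholesterol synthesis genes, was 35.6 and 45.3 TPM, a ratio of 1.27 (1.23 to 1.32). The level of Srebf1 was 1.41 times that of Srebf2 in the control and 1.30 times in the knockout library. Scap, the escort protein, was 24.5 and 22.8 TPM, a ratio of 0.928 (0.879 to 0.979). SREBP activity is set by cleavage of the protein, which these data do not measure.

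The 2 retention proteins of the SREBP pathway differed from each other. Insig1, itself an SREBP target in most cells, was 70.2 TPM in control organoids and 38.5 TPM in Trp53 knockout organoids, a ratio of 0.548 (0.522 to 0.576). Insig2, which is not driven by SREBP, was 19.9 and 18.2 TPM, a ratio of 0.916 (0.848 to 0.987). Insig1 had the lowest ratio among the genes of sterol sensing, and 18.7% of all measured genes had a lower difference. Its level was 3.53 times that of Insig2 in the control and 2.11 times in the knockout library. Scap and Insig2 lay within 0.07 of the median of all genes on the log2 scale, and both were above 0 after rescaling by the median ratio and after quantile normalization.

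Soat1, the acyltransferase that stores cholesterol as esters in the endoplasmic reticulum, was the lowest of the measured members. It was 45.6 TPM in control organoids and 3.15 TPM in Trp53 knockout organoids, from an estimated 22724 and 466 reads. The control level was 14.5 times the knockout level (13.2 to 15.9), and only 165 of the 11228 measured genes had a lower difference. Soat2, the other cholesterol acyltransferase, was 0.0152 TPM in control organoids with a listed 0 after knockout, so Soat1 was the main acyltransferase transcript in both. Nceh1, a hydrolase that releases cholesterol from stored esters, was also lower, at 27.1 and 6.45 TPM, a ratio of 0.238 (0.217 to 0.260).

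Abca1, which exports cholesterol to lipid-poor apolipoproteins, did not pass the filter on low values. It was 0.972 TPM in control organoids and 0.132 TPM in Trp53 knockout organoids, from 594 and 24 reads, and the control level was 7.35 times the knockout level (4.89 to 11.6). Abca1 was the 1 member on chromosome 4, whose 672 measured genes had a median difference of 0.63, and no member lay on chromosome 2. Stard4, a soluble sterol carrier, was 23.8 and 38.0 TPM, a ratio of 1.59 (1.53 to 1.66), and was the 1 higher gene of the transport group. Npc1 and Npc2 together move cholesterol out of the lysosome. Npc1 was 3.09 and 2.43 TPM, a ratio of 0.787 (0.678 to 0.911), and Npc2 was 182 and 145 TPM, a ratio of 0.797 (0.779 to 0.816). Of all measured genes, 45.0% had a lower difference than Npc1 and 40.8% a lower one than Npc2. The Npc2 level was 58.9 times that of Npc1 in the control and 59.7 times in the knockout library. Npc1 was above 0 after quantile normalization.

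Macrophages are rich in several genes of cholesterol handling, so their markers are given here. Among the handling genes, Soat1, Nceh1 and Abca1 were lower in the knockout library. The exporter gene Abcg1 (0.209 and 2.59 TPM) and the receptor gene Lrp1 (0.163 and 3.56 TPM) were higher. The 7 macrophage and leukocyte markers summed to 879 TPM in control organoids and 193 TPM in Trp53 knockout organoids, and 4 and 2 of them were above 1 TPM. Lyz2 (257 and 0 TPM), Cd14 (588 and 177 TPM) and Csf1r (8.78 and 0.420 TPM) were lower by 2-fold or more, and Cd68 had a ratio of 0.626. The pan-leukocyte gene Ptprc (0.0886 and 0.0110 TPM), the macrophage gene Adgre1 (0.0363 and 0 TPM) and the T cell gene Cd3e (0 in both) were at or near 0 in both libraries. Markers of fibroblasts summed to 0.0974 and 0 TPM, of endothelial cells to 0.181 and 0.0674 TPM, of adipocytes to 0.154 and 0.189 TPM and of steroid-producing ovarian cells to 1.45 and 0.509 TPM. The part of these markers, and of the secretory, multiciliated and basal markers given at the outset, in the members' values was not tested. In bulk RNA, fewer cells of a type and less RNA per cell cannot be told apart.

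**Figure D4:**
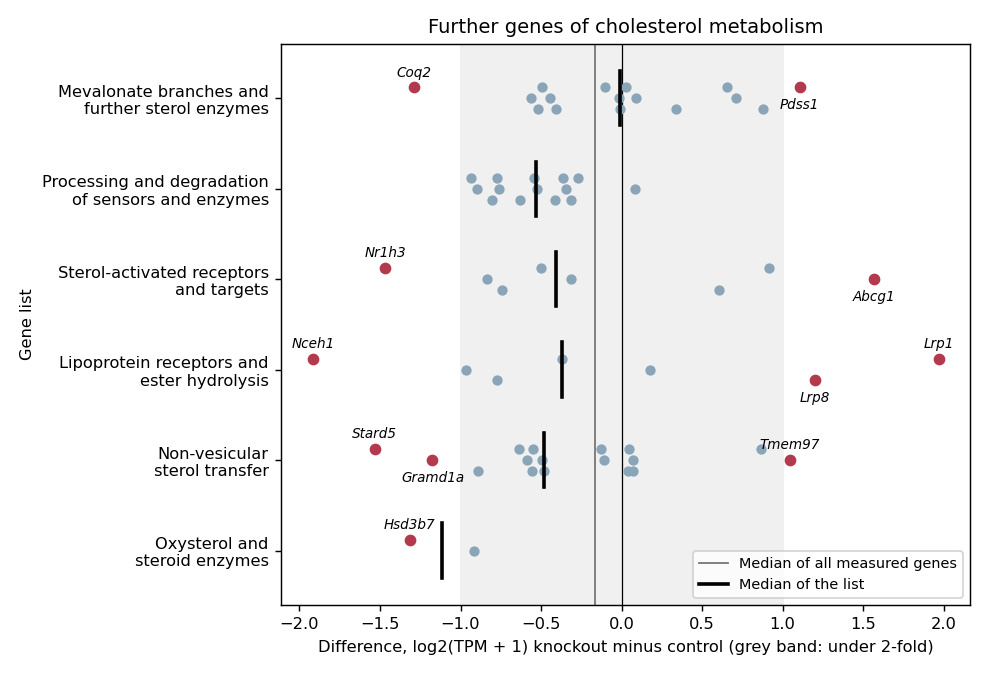
Differences in log2(TPM + 1), knockout minus control, of the measured genes of 6 further lists, 1 point per gene. Red points with names are past 2-fold (5 higher and 6 lower), black bars are list medians and the grey line is the median of all measured genes.

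Of 64 measured genes on 6 further lists of cholesterol metabolism, 5 were higher and 6 lower by 2-fold or more, with a median difference of −0.41. The 2-fold mark was passed upwards by 8.35% and downwards by 15.3% of all 11228 measured genes. The same shares are the background for the counts of single lists below, and no list was tested against them. In the branches of the mevalonate pathway, 1 of 16 genes was higher and 1 lower. Pdss1, which builds the side chain of ubiquinone, was 8.48 and 19.4 TPM, and Coq2, which attaches that chain, was 75.4 and 30.3 TPM. These are consecutive steps of 1 branch. Processing and degradation of sterol sensors and enzymes had 0 of 14 genes past 2-fold in either direction. All but 1 of the 14 had a difference below 0, as had 6747 of the 11228 measured genes. The median of the 14 was −0.53, against −0.17 over all genes. Their differences ran from −0.93 for Mbtps1, the protease that makes the first cut in SREBPs, to 0.08 for Erlin1.

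Among 8 measured sterol-activated receptors and their targets 1 was higher and 1 lower. Nr1h3, which encodes the oxysterol receptor LXR-alpha, was 2.27 TPM in control organoids and 0.184 TPM in Trp53 knockout organoids, from 265 and 6 reads. Its partner gene Nr1h2, LXR-beta, was 40.5 and 22.2 TPM, under the 2-fold threshold. Abcg1, an exporter that LXRs activate, was 0.209 and 2.59 TPM, a ratio of 12.4 (9.59 to 16.4). Abcg1 and Abca1, both known LXR targets and both cholesterol exporters, therefore lay on opposite sides. Abcg1 passed the filter on low values only through the knockout library and Nr1h3 only through the control library. The filter thus favoured the count of both.

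Lipoprotein receptors and ester hydrolysis had 2 of 7 measured genes higher and 1 lower, the latter Nceh1. Lrp1, a large endocytic receptor, was 0.163 TPM in control organoids and 3.56 TPM in Trp53 knockout organoids. Lrp8, a receptor of the same family on chromosome 4, was 0.848 and 3.24 TPM. Lrp1 and Lrp8 were under 1 TPM in the control library and passed the filter only through the knockout library. The filter thus favoured their count as higher. Scarb1, which takes up cholesterol from high-density lipoprotein, was 14.9 and 17.0 TPM. The list median was −0.37.

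Non-vesicular sterol transfer had 1 of 17 measured genes higher and 2 lower, with a median of −0.48. Tmem97, a sterol-regulated membrane protein that binds Npc1, was 57.1 and 119 TPM. Stard5, a sterol carrier related to Stard4, was 24.8 and 7.91 TPM, a ratio of 0.319 (0.287 to 0.353), opposite in direction to Stard4. Gramd1a, which moves cholesterol from the plasma membrane to the endoplasmic reticulum, was 4.17 and 1.29 TPM. Of 2 measured oxysterol and steroid enzymes 1 was lower, Hsd3b7, of bile acid synthesis, at 21.1 and 7.88 TPM.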

How the data were processed

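RNA was measured in 1 control and 1 Trp53 knockout organoid library, grouped by the genotype label. Libraries were strand-preserving, per the labels' protocols, and the submitters' processing notes name GRCm39. The sources used here do not give the aligner, the counter, the strand setting or the annotation. TPM values per gene symbol were deposited by the authors.

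Reads were estimated from TPM with the longest protein-coding transcript of GENCODE M21, used for lengths, exons and chromosomes only. For a length of 1000 bases a read equals 0.0168 TPM (control) or 0.0565 TPM (knockout). Of genes under 20 reads, 53.7% and 49.2% came out whole within 0.02, and 8 members had such numbers in both libraries. For other genes the reads assume this length. A library listed at 0 was given a floor of 3 reads. Calls used a pseudocount of 1, a mean TPM of at least 1 and a 2-fold threshold, with no test. Python 3.11.15, SciPy 1.17.1 and pandas 2.3.3 were used, and calls and intervals were tested on simulated data. The simulated reads were made with the same lengths that were then used to estimate them. The simulation therefore could not test the assumed length.

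All 29 members are named, with every gene of the further lists past 2-fold, and Trp53. Genes named outside this rule were chosen after their values were seen. They are Acat1, Acat3, Lbr, Soat2, Nr1h2, Scarb1, Mbtps1, Erlin1, Ctsb, Vps51, Gm43738, single cell type markers and those under other observations. Members and lists were chosen with earlier results of these data known, and some genes of the pathway are not reported here and enter no count of a further list. Of the members, 11 share exon bases with another annotated gene, 9 of them with one on the opposite strand. Other settings tried were pseudocounts of 0.1 and 5, a minimum mean TPM of 0 and 5, a 4-fold threshold, scaling by the median ratio or by quantiles, and leaving out mitochondrial transcripts together with the top 100 genes, or all genes of chromosomes 2 and 4.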

Additional observations from a re-analysis of the deposited data

How the results depend on the processing

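The count of 3 members at least 2-fold higher, against 8.35% of all genes, was between 2 and 4 under every alternative at that threshold. It was 0 at a 4-fold threshold, against 2.38% of all genes. After rescaling by the median ratio Idi1 joined Pmvk, Fdps and Cyp51, 4 of 28 members against 10.6% of all genes. After quantile normalization Fdps left them, and 2 of 28 members stood against 11.5% of all genes. Soat1 was the 1 lower member under every alternative run, but Abca1 could not have joined it under any of them. Abca1 was measured only without the filter on low values, where its difference was −0.80. With a pseudocount of 1, a control level of 0.972 TPM cannot give a difference of 2-fold or more downwards. The share of all genes called lower ran from 5.89% (4-fold threshold) to 18.3% (pseudocount of 0.1). The median difference over the members, 0.32, was 0.49 after rescaling by the median ratio and 0.40 after quantile normalization, where the median over all genes was −0.01 and 0.03. The sign differed from the reported one under at least 1 alternative for 3 members, Scap, Insig2 and Npc1. Counting error was widest for Abca1 and Npc1, and the interval of Hsd17b7 held 1. The spread between cultures is unknown with 1 library per genotype. No paired analysis was possible because each genotype has 1 library.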

Other observations

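Genes of oxysterol and sterol handling below the filter on low values differed between the libraries too, and were chosen after their values were seen. Ch25h, which makes 25-hydroxycholesterol, was 0.230 TPM in control organoids and 1.75 TPM in Trp53 knockout organoids, from 19 and 43 reads, a ratio of 7.62 (4.34 to 13.8). Cyp7b1, which hydroxylates oxysterols for their removal, was 1.75 TPM in control organoids with a listed 0 after knockout, at least 22.4-fold lower. Gramd1b, a relative of Gramd1a that also moves cholesterol from the plasma membrane, was 0.920 TPM in control organoids with a listed 0 after knockout, at least 40.6-fold lower. These bounds rest on a floor of 3 reads in the knockout library.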
